A study of Mus musculus with 12 samples.

Results

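The miRNAs of mouse quadriceps were compared between postnatal day 14 (P14) and postnatal day 1 (P1), an interval that covers most of the suckling period. The comparison rests on 6 of the 12 libraries of the series, 3 from P1 and 3 from P14, and takes in all 1966 mature miRNAs of the count table. Of these, 809 were abundant enough to be tested, 1157 were not tested and 531 had no count in any of the 6 libraries. All mice were wild-type C57BL/6J animals, 1 day old in the P1 group and 14 days old in the P14 group, with no transgene and no treatment. Total RNA came from whole quadriceps homogenized with beads in TRI reagent, and small RNA libraries were prepared with a NEXTflex kit. In the study this time course served as the developmental reference for muscle that lacks the splicing factor Mbnl1. The other ages, P5 and P90, were not compared. Their libraries entered the filter, the scaling factors, the correction for base composition and the estimate of the spread between libraries. Their levels are given where they help to place P1 and P14. Beyond strain and age the labels describe no mouse, so the P values measure the spread between these libraries.

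A miRNA is cut from a hairpin and guides an Argonaute protein to mRNAs that pair with its seed, so miRNAs with the same seed are expected to share targets. Both arms of a hairpin can be loaded, and usually the arms are kept to different extents. Skeletal muscle is known for a small set of muscle-restricted miRNAs (miR-1, miR-133, miR-206, miR-208b, miR-499 and miR-486) that support the differentiation of myoblasts and the choice of fiber type. During the suckling period mouse muscle fibers enlarge, neonatal myosins give way to adult ones and the proliferation of muscle progenitors declines.

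The sequences below belong to the miRNAs on which the results turn. They were taken from RefSeq with GRCm38.p6 coordinates, where 688 of the 809 tested miRNAs had a mature sequence, and the seed, bases 2 to 8, is in capitals. The first set shows 9 let-7 family members with the seed GAGGUAG, because miRNAs with this seed moved in both directions.
let-7a-5p: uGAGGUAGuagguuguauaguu
let-7b-5p: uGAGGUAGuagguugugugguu
let-7c-5p: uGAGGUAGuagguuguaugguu
let-7d-5p: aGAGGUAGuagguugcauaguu
let-7e-5p: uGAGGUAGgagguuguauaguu
let-7f-5p: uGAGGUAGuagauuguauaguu
let-7g-5p: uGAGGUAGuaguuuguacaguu
let-7i-5p: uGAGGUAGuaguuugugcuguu
miR-98-5p: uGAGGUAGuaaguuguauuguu

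The second set holds 2 further seeds whose members moved apart, CCCUGAG and UCAAGUA, followed by the seed AGCAGCA of the miR-15 family.
miR-125a-5p: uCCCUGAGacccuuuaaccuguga
miR-125b-5p: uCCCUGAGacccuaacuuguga
miR-351-5p: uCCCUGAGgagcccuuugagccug
miR-26a-5p: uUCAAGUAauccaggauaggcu
miR-26b-5p: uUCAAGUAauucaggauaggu
miR-195a-5p: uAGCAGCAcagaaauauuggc
miR-497a-5p: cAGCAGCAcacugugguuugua
miR-15b-5p: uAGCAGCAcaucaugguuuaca
miR-16-5p: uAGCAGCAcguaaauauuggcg
miR-322-5p: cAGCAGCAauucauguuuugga

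The third set gives the miRNAs of the imprinted Dlk1-Dio3 region that decreased most among the abundant ones, each from its own hairpin on chromosome 12.
miR-376b-3p: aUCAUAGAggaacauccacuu
miR-154-3p: aAUCAUACacgguugaccuauu
miR-380-3p: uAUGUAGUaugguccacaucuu
miR-369-3p: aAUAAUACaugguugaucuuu
miR-543-3p: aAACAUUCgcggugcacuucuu
miR-485-3p: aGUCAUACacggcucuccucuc

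The last set shows muscle miRNAs, which mark the tissue and its fiber types.
miR-133b-3p: uUUGGUCCccuucaaccagcua
miR-206-3p: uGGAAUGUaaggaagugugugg
miR-208b-3p: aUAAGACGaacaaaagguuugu
miR-499-5p: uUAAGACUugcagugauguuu

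Library totals were 25472336 to 26783448 counts at P1 and 20363495 to 24046074 at P14. A miRNA with no count could still have been present at up to 3 counts, which is 0.0692 to 0.105 normalized CPM in these libraries. Normalized CPM are counts divided by the TMM-scaled library size. The TMM factors were 1.41 to 1.73 at P14 but 0.247 to 0.384 at P90, so adult levels in normalized CPM depend strongly on this scaling. The 3 libraries of an age differed from each other by far more than counting error, so each was used as a separate sample. MiR-1a-3p, the marker of striated muscle, held the largest share of the counts in each of the 6 libraries, 22.2% to 26.8% at P1 and 16.0% to 22.8% at P14, so the defining marker of the labelled tissue was present in all of them. P14 replicate 2 stood apart from the other P14 libraries by the lowest miR-1a-3p share (16.0%). The libraries also differed in how counts depended on base composition. Across 348 miRNAs, log2 counts changed with GC content by 0.368, 0.544 and 0.372 per 10 percentage points in P14 replicates 1, 2 and 3, relative to the mean library, and by -0.0769 to -0.0271 in the P1 libraries. Therefore results are given, where it matters, also after this trend had been removed from every library. A miRNA annotated on the strand opposite to another can receive the reads of its partner, and without such later-named antisense miRNAs 381 of 774 were called, 158 up and 223 down.

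Nearly as many miRNAs differed between P1 and P14 as did not. In total 397 of the 809 miRNAs, or 49.1%, differed at an adjusted P value (Padj) under 0.05 in the quasi-likelihood test of edgeR with Benjamini-Hochberg adjustment. Of these, 164 (20.3%) were upregulated and 233 (28.8%) downregulated at P14. The downregulated miRNAs also moved further, with a median log2 fold change (log2FC) of -1.77 compared with 1.19 for the upregulated ones. At least an 8-fold difference was estimated for 48 downregulated and 12 upregulated miRNAs. The libraries of the ages did not overlap for 479 miRNAs (59.2%), which included 387 of the 397 called. Among the 204 miRNAs whose mean reached 100 normalized CPM, 69 rose, 74 fell and 61 did not pass the test.

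The median log2FC over all miRNAs tested was -0.11. With upper-quartile factors in place of TMM it was 0.20, and the split turned to 229 upregulated and 181 downregulated miRNAs. Of the 397 called miRNAs, 164 upregulated and 181 downregulated ones kept their call with upper-quartile factors. For 16 downregulated miRNAs every P14 library was at or under 3 counts, and for 4 upregulated ones every P1 library was. The fold changes of these 20 miRNAs are known only as bounds, and they include the largest estimates of either direction, such as miR-7019-3p (no count at P1 and 39 to 57 counts at P14) and miR-466n-3p (53 to 72 counts at P1 and none at P14). Both are rare, and they were picked after their values were seen.

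**Figure D1:**
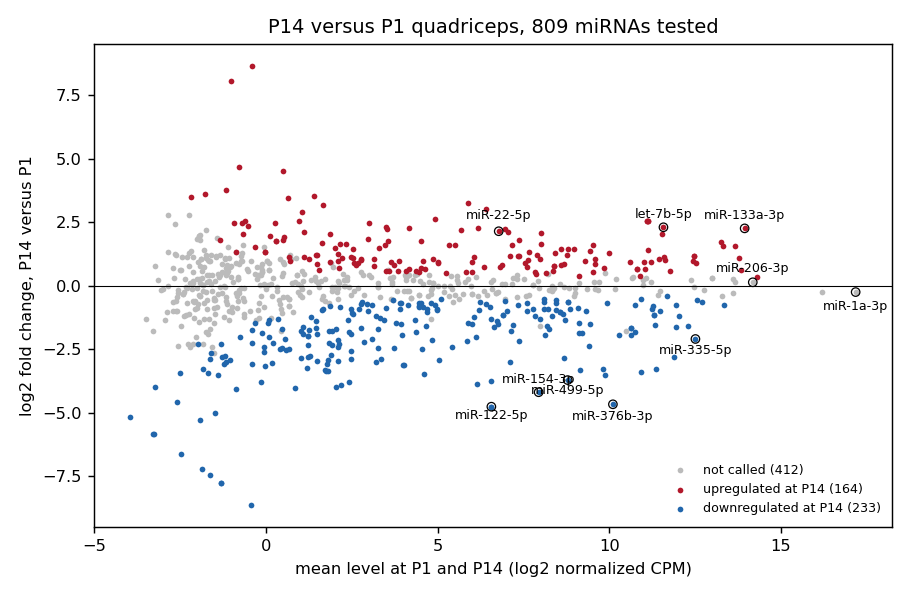
Mean level over P1 and P14 (log2 normalized CPM, horizontal) against log2FC of P14 versus P1 (vertical) for the 809 miRNAs tested, with 164 upregulated in red, 233 downregulated in blue and 412 not called in gray. Circled points are named, and miR-376b-3p, miR-154-3p and miR-499-5p lie far below 0 at high levels while miR-1a-3p and miR-206-3p lie near 0.

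The muscle miRNAs moved in both directions. Of the 15 tested, 4 rose, 5 fell and 6 did not pass, near the shares over all tested miRNAs (20.3% up and 28.8% down). These counts are therefore no result about the group, and the median log2FC was -0.18. The sign of this median was not stable, as it was 0.11 with upper-quartile factors, 0.20 with the GC trend removed, 0.12 without P1 replicate 2 and 0.14 without P14 replicate 2. The most abundant, miR-1a-3p, which promotes the differentiation of myoblasts, had 183646, 130785 and 167227 normalized CPM in the P1 libraries and 150275, 93043 and 162278 in the P14 libraries. These ranges overlapped, and the log2FC of -0.25 (SE 0.22) did not pass the test (edgeR Padj = 0.38). With the GC trend removed the estimate was 0.64 (edgeR Padj = 0.0088), so the call for miR-1a-3p depended on this step. Reads of miR-1a-3p also reached miR-1b-5p, which is annotated on the opposite strand of the same hairpin and held at most 0.507 times its count in the 6 libraries.

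The partner of miR-1a on the same transcripts behaved differently. MiR-133a-3p, which is known to act on proliferation and on smooth muscle genes in developing muscle, had 6037, 5032 and 5246 normalized CPM at P1 and 21486, 26417 and 30117 at P14. All P14 libraries lay above all P1 libraries, and the miRNA rose by a log2FC of 2.26 (SE 0.19, edgeR Padj = 1.2e-07; 1.82 with the GC trend removed). Its paralog miR-133b-3p, expressed with miR-206 from the Lincmd1 locus (hairpin at chr1:20682769-20682887), went the other way, with 228, 266 and 216 at P1 and 147, 146 and 157 at P14. The decrease was modest (log2FC -0.66, SE 0.20, edgeR Padj = 0.013), and it no longer passed with upper-quartile factors (log2FC -0.35, Padj = 0.13) or without P1 replicate 2 (log2FC -0.57, Padj = 0.058). MiR-206-3p, which marks regenerating and immature fibers and lies next to miR-133b (chr1:20679010-20679082), stayed within an overlapping range of 16888, 17139 and 18919 at P1 and 17694, 19322 and 21218 at P14 (log2FC 0.14, SE 0.14, edgeR Padj = 0.47). Its mean level in the adult P90 libraries was 1288, far below both ages. The rarer arm, miR-206-5p, fell from a mean of 6.20 to 0.811 (log2FC -2.94, SE 0.37, edgeR Padj = 6.9e-06).

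Both miRNAs hosted by slow myosin genes fell sharply. MiR-499-5p lies in an intron of Myh7b (chr2:155622880-155622958), and its levels were 722, 749 and 991 at P1 and 73.0, 46.9 and 68.3 at P14. The ages were far apart, and the mean of the adult P90 libraries was 51.6. The log2FC was -3.71 (SE 0.44, edgeR Padj = 4.4e-06), and -2.60 with the GC trend removed. MiR-208b-3p, which Myh7, the slow and cardiac beta-myosin gene, carries in an intron (chr14:54975700-54975776), was a rare miRNA with 5.85, 6.32 and 9.57 at P1 and 2.12, 1.06 and 0.944 at P14. It fell by 2.39 on the log2 scale (SE 0.38, edgeR Padj = 8.1e-05), and by 1.10 with the GC trend removed. In contrast, miR-486a-5p, which is encoded in an intron of Ank1 (chr8:23142555-23142682) and is enriched in muscle, had 684, 606 and 636 at P1 and 3711, 3941 and 3614 at P14. This was a rise by a log2FC of 2.55 (SE 0.19, edgeR Padj = 3.7e-08). The mean was 734 at P5 and 4056 at P90, so in normalized CPM the P14 libraries were close to the adult level. This closeness depends on the TMM scaling of the P90 libraries. A hairpin on the opposite strand, miR-486b, faces miR-486a, and miR-486b-3p received 0.9999 to 1 times the count of miR-486a-5p, so these facing arms are not separate measurements.

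**Figure D2:**
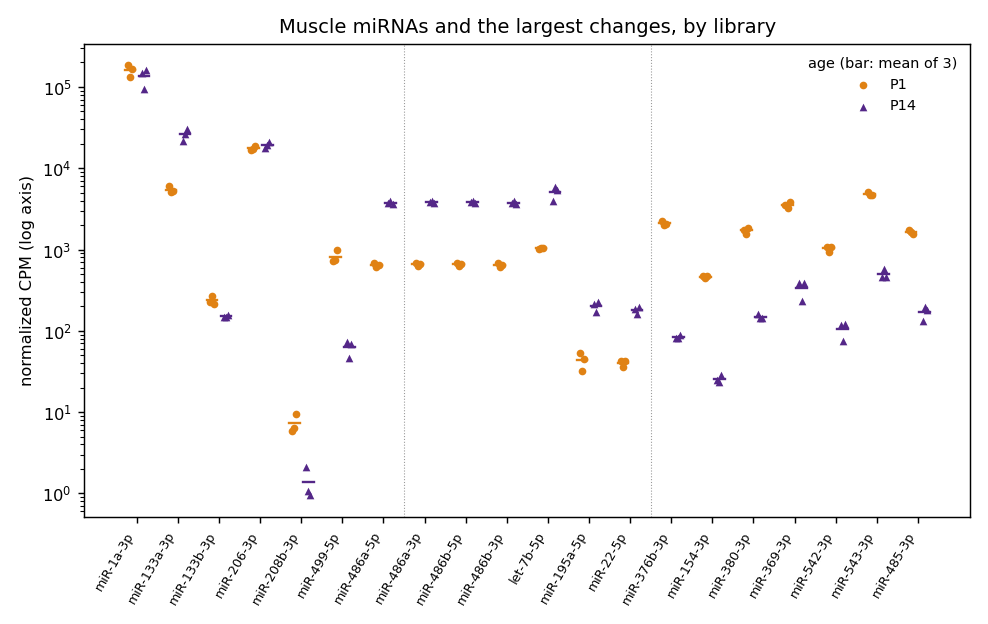
Normalized CPM on a log axis of 7 muscle miRNAs (left), the other most increased (middle) and the other most decreased abundant miRNAs (right), with P1 libraries as circles, P14 libraries as triangles and the mean of 3 as a bar. The P1 and P14 points of miR-1a-3p and miR-206-3p overlap, whereas those of miR-133a-3p, miR-499-5p and miR-376b-3p are well apart.

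Besides miR-133a-3p and the arms of miR-486, the abundant miRNAs that increased most were let-7b-5p, miR-195a-5p and miR-22-5p. Levels of let-7b-5p were 1009, 1031 and 1050 at P1 and 3992, 5837 and 5400 at P14, above the mean of 2253 at P90. The rise was 2.30 on the log2 scale (SE 0.17, edgeR Padj = 3.0e-08) and was 2.20 with the GC trend removed. MiR-195a-5p, which restrains cell cycle genes, had 54.0, 32.4 and 45.3 at P1 and 213, 171 and 227 at P14 (log2FC 2.22, SE 0.21, edgeR Padj = 4.5e-07). MiR-22-5p had 42.9, 35.5 and 43.0 at P1 and 183, 160.5 and 194 at P14 (log2FC 2.15, SE 0.15, edgeR Padj = 1.6e-08). For each of the 3 miRNAs the lowest P14 library exceeded the highest P1 library, which was a condition of their choice and is no further support.

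The abundant miRNAs that decreased most came mainly from the Dlk1-Dio3 region of chromosome 12, an imprinted domain whose miRNAs are transcribed from the maternal chromosome and are typical of fetal and placental tissue. The count table holds 112 miRNAs of the region and 108 were tested, of which 60 fell, 9 rose and 39 did not pass the test. The median log2FC was -0.77 compared with -0.01 over the 701 miRNAs outside the region, of which 173 fell and 155 rose. Removing the GC trend left this almost as it was (median -0.83, 59 fell and 7 rose). With upper-quartile factors the median was -0.46, with 46 decreases and 19 increases. Together the miRNAs of the region took 21.9%, 22.6% and 22.6% of all counts in the P1 libraries and 13.2% to 16.6% in the P14 libraries (22.4% ± 0.379 and 14.6% ± 1.78, SD, n = 3 each). The P14 share lay below the P1 share in every library (exact permutation test, 2-sided, p = 0.1, the smallest value that 3 libraries against 3 allow). The mean share was 18.9% at P5 and 0.115% at P90, so most of the decline of the share between P1 and P90 lay after P14.

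MiR-376b-3p (chr12:109723458-109723539) decreased most among the abundant miRNAs, from 2263, 2029 and 2060 normalized CPM at P1 to 80.9, 80.6 and 89.5 at P14. The difference was -4.66 on the log2 scale (SE 0.21, edgeR Padj = 3.2e-10; -4.05 with the GC trend removed), and the P5 mean was 609.5. MiR-154-3p (chr12:109738433-109738498) had 471, 451 and 475 at P1 and 24.7, 23.6 and 28.4 at P14 (log2FC -4.19, SE 0.16, edgeR Padj = 9.5e-11). The libraries of each age were tightly grouped for both miRNAs. MiR-380-3p (chr12:109711803-109711863) had 1742, 1546 and 1855 at P1 and 161, 145 and 142 at P14 (log2FC -3.52, SE 0.21, edgeR Padj = 3.8e-09). MiR-543-3p (chr12:109717258-109717333) had 5042, 4631 and 4735 at P1 and 454, 574 and 456 at P14 (log2FC -3.28, SE 0.17, edgeR Padj = 1.2e-09). MiR-485-3p (chr12:109734902-109734974) had 1728, 1624 and 1537 at P1 and 132, 196 and 182 at P14 (log2FC -3.26, SE 0.20, edgeR Padj = 5.6e-09). The 2 last estimates became larger with the GC trend removed, -3.38 and -3.73. MiR-369-3p (chr12:109743418-109743496), whose GC content is 23.8%, had 3514, 3211 and 3842 at P1 and 390.3, 234 and 383 at P14. Its log2FC of -3.39 (SE 0.23, edgeR Padj = 1.5e-08) shrank to -1.22 with the GC trend removed (Padj = 6.2e-06).

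The most abundant miRNAs of the region gave a mixed picture. MiR-434-3p, the member with the highest mean, had 12463, 12158 and 11839 at P1 and 12211, 15070 and 13224 at P14 (log2FC 0.15, SE 0.16, edgeR Padj = 0.47). MiR-127-3p, which is processed from a transcript antisense to Rtl1, had a log2FC of 0.26 (SE 0.17, edgeR Padj = 0.23). MiR-379-5p fell from a mean of 13080 to 7706 (log2FC -0.76, SE 0.17, edgeR Padj = 0.0017) and miR-431-5p from 7108 to 4813 (log2FC -0.56, SE 0.17, edgeR Padj = 0.010). For miR-541-5p the means were 5825 ± 27.0 at P1 and 5578 ± 68.1 at P14 (SD, n = 3 each). MiR-411-5p went from a mean of 11390 to 8587, a log2FC of -0.41 that did not pass (SE 0.17, edgeR Padj = 0.060). MiR-495-3p fell from a mean of 6635 to 941 (log2FC -2.82, SE 0.18, edgeR Padj = 8.1e-09). All of these miRNAs except miR-434-3p were picked after their values were seen, and within this domain the log2FC of single miRNAs covered a wide range.

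Along the chromosome the tested miRNAs formed 3 groups. In the group from miR-770 to miR-136 (chr12:109563692-109595397), which contains the miRNAs antisense to Rtl1, 12 of 27 fell, 3 rose and 12 did not pass, with a median log2FC of -0.53. Of the 6 from miR-341 to miR-370 (chr12:109611500-109618336) 4 fell and none rose, with a median of -0.99. The large cluster from miR-379 to miR-3072 (chr12:109709060-109747960), which is transcribed with the lncRNA Mirg, had 44 decreases, 6 increases and 25 miRNAs that did not pass among 75, with a median of -0.77. Elsewhere on chromosome 12, 6 of 21 tested miRNAs fell and 2 rose, where 28.8% of all tested miRNAs fell and 20.3% rose.

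**Figure D3:**
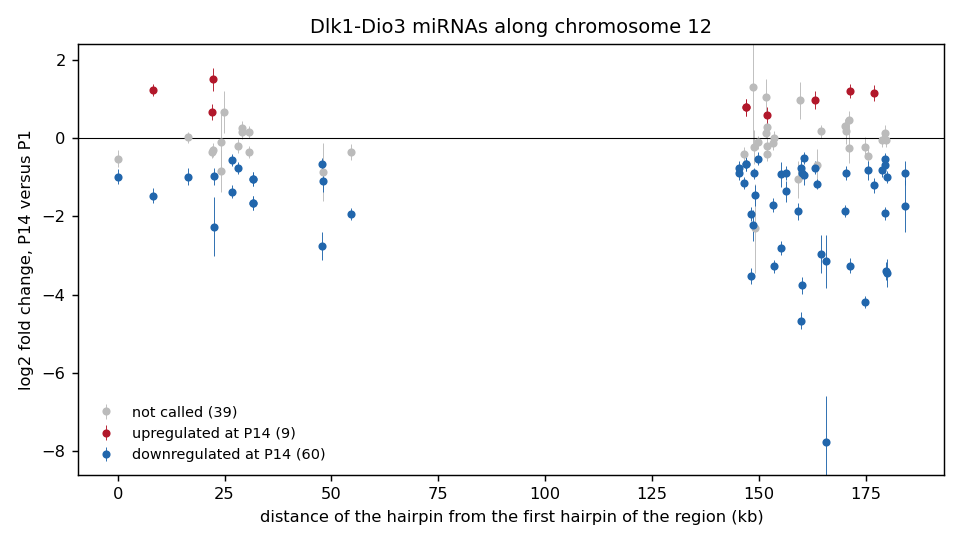
Log2FC of P14 versus P1 (points, with SE as bars, drawn to at most 2) for the 108 tested Dlk1-Dio3 miRNAs against the distance of their hairpin from the first hairpin of the region in kb. Decreases (60, blue), increases (9, red) and miRNAs that did not pass (39, gray) are interspersed in both outer groups.

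The X-linked cluster that runs from miR-322 to miR-450b, known for the exit of myoblasts from the cell cycle through miR-322 and miR-503, mostly decreased. Of its 13 miRNAs 10 fell, 1 rose and 2 did not pass, with a median log2FC of -1.21 (-1.10 with the GC trend removed). MiR-542-3p (chrX:53049403-53049487) had 1084, 944 and 1086 at P1 and 119, 74.3 and 121 at P14 (log2FC -3.31, SE 0.20, edgeR Padj = 5.6e-09; -2.05 with the GC trend removed). MiR-503-5p went from a mean of 723 to 100.4, and miR-450b-5p from 133 to 9.16, with log2FC of -2.85 and -3.86. The most abundant member was miR-351-5p (chrX:53053255-53053353), with 3912, 3772 and 3469 at P1 and 2824, 3126 and 2552 at P14. Its decrease was small (log2FC -0.39, SE 0.14, edgeR Padj = 0.033) and passed neither with upper-quartile factors (-0.08, Padj = 0.73) nor with library totals alone (-0.41, Padj = 0.11), nor in 4 of the 6 fits without 1 library. MiR-322-5p itself did not pass (mean 217 at P1 and 166 at P14, log2FC -0.39, SE 0.19, edgeR Padj = 0.11).

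Another X-linked cluster lies in the introns of Clcn5. MiR-501-3p, its most abundant miRNA, had 634, 540.3 and 624 at P1 and 858, 984 and 753 at P14 (log2FC 0.53, SE 0.15, edgeR Padj = 0.0091). This rise did not pass with the GC trend removed (0.06, Padj = 0.78) or with library totals alone (0.52, Padj = 0.068). Over the 10 members 1 rose, 2 fell and 7 did not pass, with a median log2FC of -0.32. With upper-quartile factors 3 rose and 2 fell. Over all tested miRNAs 20.3% rose and 28.8% fell, so counts this small are no result about the cluster.

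The miR-17 to miR-92a cluster and its paralogs, which are linked to proliferation, had 11 decreases, 2 increases and 7 miRNAs that did not pass among 20 tested, with a median log2FC of -0.94. MiR-18a-5p fell 4.01-fold, from a mean of 111 to 27.8 (edgeR Padj = 8.8e-08). MiR-19b-3p had 90.8, 93.8 and 98.8 at P1 and 21.1, 16.2 and 25.1 at P14 (log2FC -2.18, edgeR Padj = 1.7e-07). The member with the highest level, miR-92a-3p, was at 1810, 2021 and 1806 at P1 and 2080, 2409 and 2021 at P14, which did not pass (log2FC 0.21, SE 0.12, edgeR Padj = 0.16). A second locus also encodes miR-92a-3p, and the difference between these members was not tested. Among the 6 tested miRNAs with the seed AAAGUGC, 5 fell and miR-93-5p rose (log2FC 0.37, edgeR Padj = 0.026; -0.04 with the GC trend removed, Padj = 0.85).

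MiR-199 and miR-214, miRNAs of mesenchymal cells encoded antisense to dynamin genes, fell as a group. All 6 tested arms decreased, with a median log2FC of -1.19 and of -1.24 with the GC trend removed. The 3p arms of miR-199a and miR-199b share the seed CAGUAGU and had similar log2FC (-1.57 and -1.55). Whether their reads can be told apart was not tested, so these arms may not be separate measurements. With upper-quartile factors 4 of the 6 passed, and 5 passed without P1 replicate 2 or without P14 replicate 1. MiR-199a-3p had 7429, 8320 and 6953 at P1 and 2545, 2091 and 3021 at P14 (log2FC -1.57, SE 0.17, edgeR Padj = 1.4e-06). MiR-101, miR-148 and miR-152, which are known to target Ezh2 and DNA methyltransferases, gave 7 decreases and no increase among 11, with a median of -0.97. MiR-148a-3p led this group with 2703, 3429 and 1959 at P1 and 799, 594 and 886 at P14 (log2FC -1.83, SE 0.20, edgeR Padj = 2.3e-06). The decrease of miR-101a-3p (log2FC -0.97, edgeR Padj = 0.0017) was at 0.13 with the GC trend removed (Padj = 0.53).

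Imprinted miRNAs outside chromosome 12 gave a mixed picture. Of 10 tested miRNAs of Igf2, H19, Mest and Gnas, 4 fell and 6 did not pass, with a median log2FC of -0.77. With upper-quartile factors 3 fell and 2 rose. Over all tested miRNAs 28.8% fell and 20.3% rose, so these small counts are no result about the group. MiR-335-5p, in an intron of Mest (chr6:30741299-30741396), had 10452, 8646 and 9201 at P1 and 2372, 1583 and 2677 at P14 (log2FC -2.09, SE 0.18, edgeR Padj = 1.7e-07). Its GC content is 30.4%, and with the GC trend removed its log2FC was -0.68 (edgeR Padj = 0.00044). In contrast, miR-483-3p of Igf2 was at a mean of 775 at P1 and 1102 at P14 (log2FC 0.51, SE 0.23, edgeR Padj = 0.077), and at 5.94 in the adult.

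The rodent-specific cluster in an intron of the imprinted gene Sfmbt2 consists of many near-identical miRNAs (miR-297, miR-466, miR-467 and miR-669), best known from placenta. Of 74 such miRNAs 34 were tested, and 29 of them fell while none rose. A member could pass the filter through the P1 libraries alone, where the cluster was highest, so this split depends in part on the filter. With no filter 27 of 66 fell and none rose. Their median log2FC was -2.26, or -2.15 when members at the floor entered with their bound, and -1.78 with the GC trend removed. Summed over the cluster the level was 215 to 247 normalized CPM at P1 and 62.8 to 72.8 at P14, so these were rare miRNAs throughout. MiR-467e-5p had 61.2, 57.1 and 56.4 at P1 and 8.70, 8.16 and 5.94 at P14 (log2FC -2.94, SE 0.31, edgeR Padj = 1.4e-06). Because the copies share sequence, the division of reads among them is uncertain.

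Several families that are associated with differentiated tissue contained increases. The let-7 family, the classical timers of development, held 7.50% ± 0.592 of the counts at P1 and 10.5% ± 1.09 at P14 (SD, n = 3 each; exact permutation test, 2-sided, p = 0.1, the smallest value possible). Over both arms 8 of 22 rose, 7 fell and 7 did not pass, with a median log2FC of -0.06 (0.25 with upper-quartile factors and 0.07 without P14 replicate 1). Among the 9 miRNAs with the seed GAGGUAG, let-7a, let-7b, let-7c, let-7d and let-7e rose, let-7i and miR-98 fell, and let-7f and let-7g did not pass. Levels of let-7a-5p were 8523, 9158 and 9214 at P1 and 16243, 19457 and 21459 at P14 (log2FC 1.09, SE 0.13, edgeR Padj = 3.8e-06). Levels of let-7c-5p were 4429, 4780 and 4242 at P1 and 12191, 15988 and 16654 at P14 (log2FC 1.74, SE 0.16, edgeR Padj = 2.9e-07). In both, the P14 libraries were clearly higher. By contrast, let-7i-5p was at 8801, 8507 and 7210 at P1 and 5389, 4562 and 5704 at P14 (log2FC -0.65, SE 0.13, edgeR Padj = 0.00086). MiR-98-5p was at 595, 548 and 522 at P1 and 267, 205 and 298 at P14 (log2FC -1.11, SE 0.16, edgeR Padj = 3.7e-05).

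The calls within the let-7 seed changed with the treatment of GC content. After the GC trend had been removed, let-7f-5p and let-7g-5p rose (log2FC 0.98 and 0.62, edgeR Padj = 5.6e-06 and 0.00023), miR-98-5p was at 0.15 (Padj = 0.40) and let-7i-5p at -0.32 (Padj = 0.050). Over the 22 miRNAs of the family the count became 10 increases and 1 decrease, with a median of 0.39. The log2FC of let-7b-5p and let-7c-5p were 2.20 and 2.07 in that fit, above those of let-7f-5p and let-7i-5p in both fits.

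A similar division was seen for the seed UCAAGUA. MiR-26a-5p had 11214, 12227 and 11056 at P1 and 17435, 16547 and 18613 at P14 (log2FC 0.61, SE 0.11, edgeR Padj = 0.00031). MiR-26b-5p had 2136, 2212 and 2106 at P1 and 1419, 932 and 1485 at P14 (log2FC -0.75, SE 0.16, edgeR Padj = 0.00095). The former comes from introns of Ctdspl and its paralog and the latter from an intron of Ctdsp1, all of which encode small phosphatases of RNA polymerase II. The decrease of miR-26b-5p turned to an increase of 0.34 with the GC trend removed (edgeR Padj = 0.037), so its direction depends on the processing.

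For the seed CCCUGAG, both miR-125 paralogs rose while miR-351-5p fell as described above. MiR-125b-5p had 3552, 4077 and 3401 at P1 and 6572, 7985 and 7370 at P14 (log2FC 0.99, SE 0.14, edgeR Padj = 2.3e-05). MiR-125a-5p had 1777, 2035 and 1618 at P1 and 3458, 4286 and 3610 at P14 (log2FC 1.06, SE 0.14, edgeR Padj = 1.3e-05). In the miR-99/100 and miR-125 families together 5 of 11 rose and none fell, with a median of 0.31, and these families are often transcribed together with let-7. Among the 688 tested miRNAs with a mature sequence, 71 seeds were shared by at least 2. Of these seeds 12 had members called in opposite directions, 5 had all members upregulated and 9 had all members downregulated. Tested miRNAs without a sequence, such as miR-133a-3p and miR-30d-5p, are not in these counts. The seed AUGUGGG is among the 12 only through miR-299b-3p, which held 0.999 to 1 times the count of miR-299a-5p on the other strand.

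The miR-30 family rose as a group, with 9 increases, 1 decrease and 2 miRNAs that did not pass, and a median log2FC of 1.16 (1.02 with the GC trend removed). The increases include miR-30f, which faces miR-30e-3p and held 1.005 to 1.011 times its count, so these are not separate measurements. Without later-named antisense miRNAs 8 of 11 rose and 1 fell. MiR-30d-5p had 6902, 6435 and 6478 at P1 and 18999, 20787 and 18025 at P14 (log2FC 1.54, SE 0.12, edgeR Padj = 5.0e-08). The exceptions among the guide arms were miR-30b-5p and miR-30e-5p, whose libraries overlapped (log2FC -0.01 and -0.19, edgeR Padj = 0.98 and 0.39). Members of the miR-29 family, which represses collagens and other matrix genes, rose in 6 of 7 cases with a median of 1.01 (1.67 with the GC trend removed), but from low levels. MiR-29a-3p had 123, 196 and 116 at P1 and 232, 218 and 270.2 at P14 (log2FC 0.72, SE 0.20, edgeR Padj = 0.0068), compared with a mean of 7580 in the adult. The P1 and P14 libraries did not overlap, and all lay far below the adult mean. With library totals alone 4 of the 7 passed, as did 4 in the fits without P1 replicate 1, without P14 replicate 3 and with the P1 and P14 libraries only.

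Among the guide arms of the miR-15 family some rose and others did not pass. Besides miR-195a-5p, its cluster partner miR-497a-5p rose from a mean of 24.9 ± 6.18 to 119 ± 9.71 (SD, n = 3 each; log2FC 2.26, SE 0.22, edgeR Padj = 4.5e-07). MiR-15b-5p rose by a smaller amount (log2FC 0.83, SE 0.13, edgeR Padj = 8.4e-05). The most abundant member, miR-16-5p, had 1497, 1427 and 1437 at P1 and 1907, 1505 and 2059 at P14, which did not pass (log2FC 0.33, SE 0.13, edgeR Padj = 0.054). Over 11 arms 4 rose, 3 fell and 4 did not pass, with a median of 0.33 that was at -0.04 without P14 replicate 1. The 3 decreases were those of miR-16-1-3p, miR-16-2-3p and miR-15b-3p, while none of the 6 tested miRNAs with the seed AGCAGCA fell. With the GC trend removed 4 arms rose and 1 fell. A difference between the paralogs was not tested.

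MiR-378 and miR-22, which are tied to mitochondrial and striated muscle metabolism, rose in 7 of 7 cases under each of the scalings and with the GC trend removed, with a median log2FC of 2.06. MiR-378a-3p, in an intron of Ppargc1b, had 5641, 4430 and 5464 at P1 and 16000, 15478 and 14480 at P14 (log2FC 1.56, SE 0.13, edgeR Padj = 1.0e-07). MiR-22-3p, the major arm of its hairpin (chr11:75463716-75463810), had 1312, 1061 and 1154 at P1 and 5030, 4376 and 4892 at P14 (log2FC 2.02, SE 0.13, edgeR Padj = 8.1e-09). The P90 mean of miR-378a-3p was 13938 normalized CPM, close to that of P14, whereas miR-22-3p reached 28705 in the adult. Both comparisons depend on the TMM scaling of the P90 libraries. As a share of raw counts, miR-378 and miR-22 together held a mean of 3.27% at P14 and 1.45% at P90. MiRNAs of the brown fat lineage, which shares a progenitor with muscle, showed 6 increases and 1 decrease among 9 with a median of 2.30. MiR-365-3p had 50.5, 52.0 and 46.9 at P1 and 225, 225 and 196 at P14 (log2FC 2.11, SE 0.15, edgeR Padj = 2.0e-08). MiR-193a-5p went from a mean of 8.57 to 52.3 (log2FC 2.61, SE 0.17, edgeR Padj = 8.6e-09). The most abundant of these miRNAs, miR-455-3p, had overlapping libraries (386, 479.9 and 250.2 at P1, 295, 405 and 465 at P14; log2FC 0.06, SE 0.23, edgeR Padj = 0.86).

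In the miR-23a cluster and its paralog, the miR-23b cluster, 4 of 11 miRNAs rose and none fell, with a median log2FC of 0.33. MiR-23b-3p rose from 1923, 1979 and 1853 to 4130, 4072 and 4380 (log2FC 1.13, SE 0.11, edgeR Padj = 4.5e-07) and miR-23a-3p by less (log2FC 0.58, SE 0.12, edgeR Padj = 0.00063). MiR-24-3p, made by both clusters, had 7455, 7570 and 6941 at P1 and 8804, 8147 and 9854 at P14, which did not pass (log2FC 0.29, SE 0.13, edgeR Padj = 0.074). MiR-27a-3p and miR-27b-3p did not pass either (log2FC -0.13 and 0.24, edgeR Padj = 0.51 and 0.16), and the 4 called miRNAs were the arms of miR-23a and miR-23b. With upper-quartile factors 8 of the 11 rose, and with the GC trend removed 3 rose and 1 fell, with a median of 0.06.

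In the miR-181 family the counts of calls were near the shares over all tested miRNAs (20.3% up and 28.8% down) and are no result about this family. MiR-10b-5p, from the HoxD cluster, had 1122, 1697 and 1468 at P1 and 3112, 2692 and 2293 at P14 (log2FC 0.92, SE 0.17, edgeR Padj = 0.00028). Of 10 Hox cluster miRNAs 3 rose and 1 fell, counts too small to be read as a result about these clusters. MiR-181a-5p, a repressor of homeobox genes in muscle, had 1550, 1878 and 1493 at P1 and 2883, 3216 and 3271 at P14 (log2FC 0.93, SE 0.14, edgeR Padj = 5.8e-05). Over 10 miR-181 arms 2 rose and 3 fell. For miRNAs of satellite cells and myoblasts (miR-31, miR-221, miR-222 and miR-489) 2 of 6 rose and none fell. With the GC trend removed 1 rose and 1 fell, and these counts are too small to be read as a result. MiR-221-3p, the most abundant of these 6 miRNAs, was at 42.7, 77.5 and 39.1 at P1 and 65.5, 60.4 and 68.0 at P14 (log2FC 0.28, SE 0.25, edgeR Padj = 0.38).

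**Figure D4:**
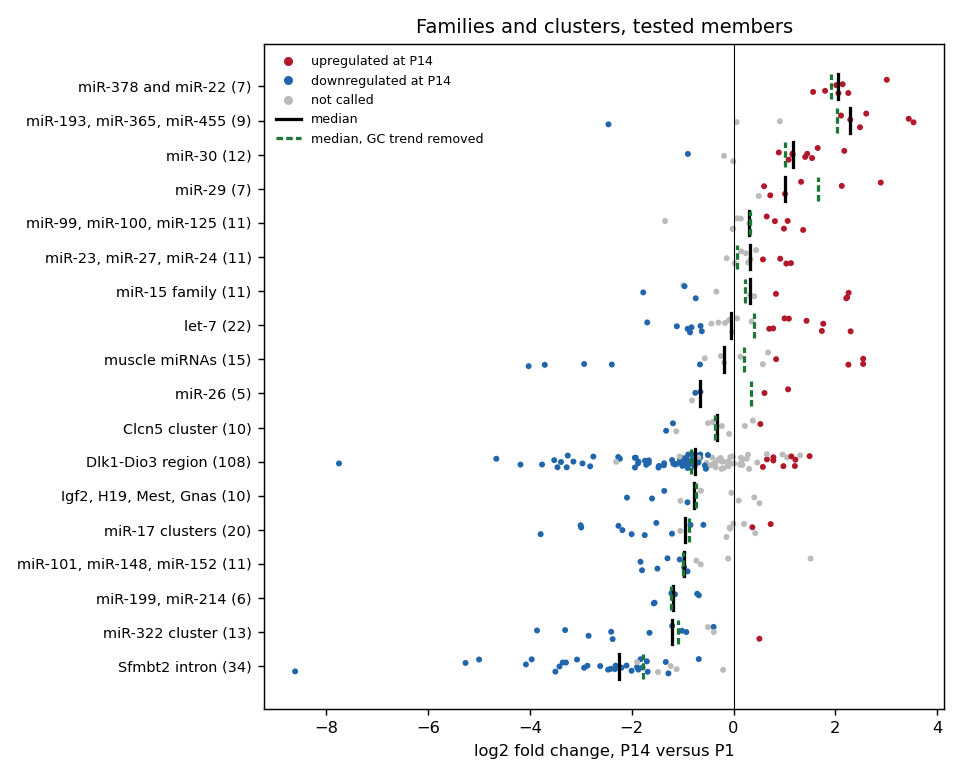
Log2FC of P14 versus P1 of the tested members (points, number in parentheses) of 18 families and clusters, with the median as a black bar and the median after removal of the GC trend as a dashed green bar. The miR-378 and miR-22, miR-30 and miR-29 groups lie to the right of 0, and the Sfmbt2, miR-322, miR-199 and miR-214 groups to the left under both medians.

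Next, the 2 arms of a hairpin were compared, since they are made from the same precursor. Both arms were tested for 250 hairpins, and the estimates had the same sign for 180 of them. Both arms were called for 87 hairpins, with both up in 28, both down in 48 and the arms moving in opposite directions in 11. All these counts include facing hairpins that hold nearly the same reads under 2 names, such as miR-486a and miR-486b or miR-136 and miR-3071. Of these 11, 6 lie in the Dlk1-Dio3 region. The clearest was miR-485, whose 5p arm rose from 260.4, 254 and 282 to 542, 703 and 592 (log2FC 1.21, SE 0.18, edgeR Padj = 5.0e-05) while the 3p arm fell as given above. For miR-673 the 5p arm fell from 823, 833 and 812 to 269, 318 and 301 (log2FC -1.47, SE 0.19, edgeR Padj = 1.3e-05) and the 3p arm rose from a mean of 144 to 334 (log2FC 1.22, SE 0.16, edgeR Padj = 9.9e-06). The P1 and P14 libraries were separate for each of these arms. MiR-377, miR-381 and miR-299a showed the same kind of split, with log2FC of 1.14, 0.98 and 0.78 for the 5p arm and of -1.21, -0.75 and -0.65 for the 3p arm. The decrease of miR-377-3p was -0.43 with the GC trend removed. That of miR-299a-3p did not pass with upper-quartile factors (-0.34, Padj = 0.14), without P1 replicate 1 (-0.55, Padj = 0.053) or without P14 replicate 2 (-0.52, Padj = 0.054). MiR-299b faces miR-299a on the other strand and has nearly the same counts. Both names are among the 11 and the 6, but they are not separate cases.

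Outside this region the arms of miR-30d, miR-15b, miR-26b, miR-106b and miR-542 were called in opposite directions. MiR-542-5p rose from a mean of 31.2 to 44.3 (log2FC 0.51, SE 0.19, edgeR Padj = 0.037), while its 3p arm fell. The call for miR-542-5p was lost in 10 of the 16 alternatives, among them each fit without 1 library (Padj up to 0.11) and the fit with the GC trend removed (log2FC 0.04, Padj = 0.89). MiR-106b-3p rose (log2FC 0.73, SE 0.15, edgeR Padj = 0.00067) and miR-106b-5p fell (log2FC -0.84, SE 0.18, edgeR Padj = 0.0011). In 7 of the 11 hairpins the rising arm had the higher GC content. When the GC trend was removed, 6 of the 11 kept opposite calls, namely miR-485, miR-673, miR-377, miR-381, miR-299a and miR-30d. MiR-30d-3p was rare, at 3.87, 4.06 and 4.33 at P1 and 1.73, 1.87 and 3.01 at P14 (log2FC -0.90, SE 0.26, edgeR Padj = 0.0099).

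Markers of other cell types were measured because whole muscle holds vessels, blood, nerve and connective tissue. In such bulk samples, fewer cells of a type and less RNA per cell cannot be told apart. Of 6 vascular miRNAs 3 rose and none fell, and their summed level was 20665 to 24254 at P1 and 28238 to 34392 at P14. MiR-126a-3p of endothelial cells rose from 3998, 3067 and 3381 to 8229, 7201 and 8203 (2.26-fold, edgeR Padj = 1.3e-05). MiR-143-3p of smooth muscle, with 19352, 17389 and 16436 at P1 and 24503, 19497 and 23893 at P14, was close to the threshold (log2FC 0.35, SE 0.14, edgeR Padj = 0.043) and did not pass with the GC trend removed (0.02, Padj = 0.94), without P1 replicate 2 (0.34, Padj = 0.10) or in 9 other alternatives.

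Among 7 leukocyte miRNAs 4 fell and 3 rose, and their sum was 283 to 498 at P1 and 235 to 247 at P14. Their median log2FC was -1.33, and -0.36 with the GC trend removed, where 3 fell and 3 rose. MiR-223-3p of granulocytes fell from 153, 335 and 167 to 72.3, 79.1 and 75.9 (log2FC -1.53, SE 0.29, edgeR Padj = 0.00043). MiR-142a-3p, found in all blood lineages, fell from 22.3, 31.6 and 32.5 to 4.02, 1.82 and 4.19 (log2FC -3.11, SE 0.28, edgeR Padj = 2.8e-07). MiR-150-5p of mature lymphocytes did the reverse, from 12.7, 9.46 and 11.3 to 109, 109 and 99.8 (log2FC 3.25, SE 0.19, edgeR Padj = 3.4e-09). The red cell miRNA miR-451a had 229, 221 and 229 at P1 and 216, 144 and 168 at P14, without overlap, but did not pass (log2FC -0.36, SE 0.21, edgeR Padj = 0.18; 0.42 with the GC trend removed). Both arms of miR-144 fell. The median log2FC of the 3 red cell miRNAs was -2.13, and -0.71 with the GC trend removed, where 2 of the 3 fell. The sum of the 3 red cell miRNAs was 270 to 307 at P1 and 153 to 234 at P14.

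MiR-122-5p, which is made by hepatocytes, was present in the P1 libraries at 44.2, 366 and 137 and at 6.39, 5.62 and 8.28 at P14 (log2FC -4.76, SE 0.73, edgeR Padj = 5.3e-05). Its level was thus most uneven among the P1 libraries, with the highest value in P1 replicate 2, which also had the highest miR-223-3p and miR-203-3p of the P1 libraries. Without P1 replicate 2 the log2FC of miR-122-5p was -3.75. Of 11 epithelial miRNAs 7 fell and none rose, with sums of 209 to 325 at P1 and 78.4 to 155 at P14. MiR-203-3p of keratinocytes had 107, 238 and 144 at P1 and 60.5, 53.3 and 109 at P14, an overlap between the ages (log2FC -1.13, SE 0.42, edgeR Padj = 0.034), and it did not pass without P1 replicate 2 (-0.75, Padj = 0.18). Neural miRNAs gave 1 increase and no decrease among 5, too few to set against the shares over all tested miRNAs (20.3% up and 28.8% down). Their sums were 106 to 210 at P1 and 107 to 164 at P14, and miR-9-5p overlapped between the ages (log2FC -0.27, SE 0.40, edgeR Padj = 0.62). The part of these other cells in the results for the muscle miRNAs and the clusters was not tested.

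The dependence on base composition concerned the whole comparison. Upregulated miRNAs had a median GC content of 52.2%, downregulated ones of 41.7% and the remainder of 50%. Among the 57 tested miRNAs under 35% GC, 39 fell and 4 rose (median log2FC -1.88), and among the 167 between 50% and 55%, 53 rose and 21 fell (median 0.35). Spearman's rho between GC content and log2FC across the miRNAs with a value was 0.33, given as a description because all points come from the same 6 libraries. In the fit with the trend removed it was 0.03, and 360 miRNAs were called, 138 up and 222 down. Of the calls given above, 120 of 164 increases and 192 of 233 decreases were also made in that fit, 2 turned to the opposite direction and 46 other miRNAs were called. The age and the trend cannot be told apart in these libraries.

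**Figure D5:**
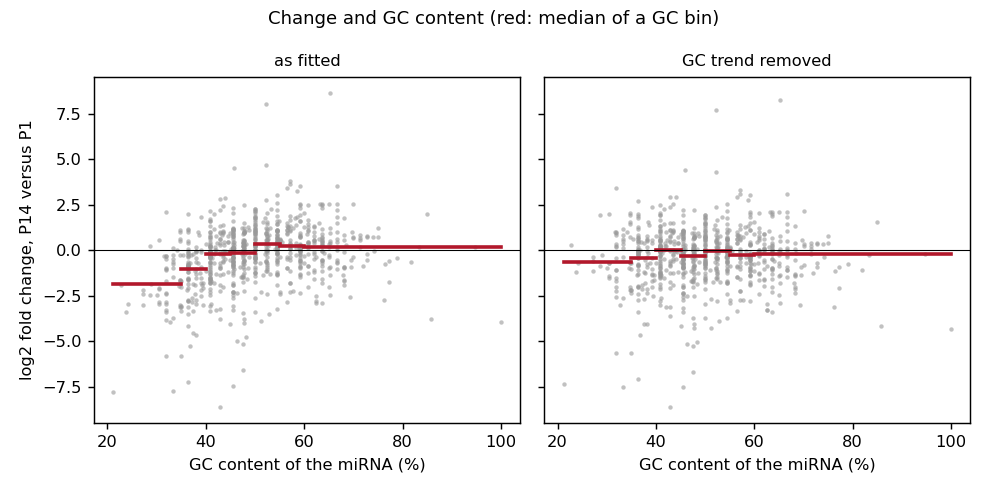
GC content of the miRNA in percent against log2FC of P14 versus P1 for the tested miRNAs with a value (gray points), as fitted (left) and after removal of the GC trend of each library (right), with medians of GC bins in red. The median of the bin under 35% GC is -1.88 on the left and -0.63 on the right.

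Finally, the composition of the libraries was compared as a whole. The share of miR-1a-3p was 25.1% ± 2.49 at P1 and 20.5% ± 3.87 at P14 (SD, n = 3 each; exact permutation test, 2-sided, p = 0.3). The 10 most abundant miRNAs held 54.8% ± 2.88 and 54.7% ± 3.59 of the counts (SD, n = 3 each; exact permutation test, 2-sided, p = 1). The inverse Simpson index, which counts how many equally abundant miRNAs would give the same evenness, was 11.9 ± 2.18 and 16.2 ± 4.90 (SD, n = 3 each; exact permutation test, 2-sided, p = 0.3). The P1 and P14 libraries overlapped in each of these 3 measures. The P90 libraries had 92.0% of their counts in the 10 most abundant miRNAs.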

How the data were processed

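Small RNA libraries from quadriceps were made from 3 mice per time point. Per the labels and the methods of the study, the authors trimmed reads with cutadapt 1.18, aligned them with Bowtie2 2.4.1 to GRCm38 and counted them per mature miRNA (miRBase annotation) with featureCounts 2.0.1. The deposited table holds raw counts. The authors tested with DESeq2 1.30.1. Strand and overlap settings of the counting are not given in the sources used here, so reads of facing arms cannot be told apart.

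Counts of all 12 libraries (4 ages) were fitted together in edgeR 4.0.16 (R 4.3.3, limma 3.58.1) with TMM factors, the default filterByExpr over the 4 ages, and the quasi-likelihood test of P14 against P1 with Benjamini-Hochberg adjustment over 809 miRNAs (Padj under 0.05). Log2FC are those of the fit, SE follow from its test statistic, and CPM use TMM-scaled library sizes. Tables were handled with pandas 2.3.3 and numpy 2.4.6. The fitting code was tested on simulated data. With 20363495 to 26783448 counts per library, counting error is small compared with the spread between libraries. The floor of 3 counts covers counting error only. For the GC trend, a loess curve (span 0.75) of each library's log2 count deviations (prior count 0.5) against GC content was fitted over miRNAs whose mean reached 10 CPM and used as an offset. GC content came from the mature sequence or, where absent, from the outer 45% of the hairpin.

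The members and lists were chosen with earlier results of these data known. Named miRNAs are 7 muscle miRNAs, the 8 largest log2FC in each direction among called miRNAs whose mean reached 100 CPM without overlap, the most abundant tested member of each list, the 5 with the highest share of counts, and hairpins whose arms were called in opposite directions. Further members that are named beside these were chosen after their values were seen. Alternatives were RLE, upper-quartile or no scaling factors, no filter, P1 and P14 libraries only, DESeq2 1.42.0, a replicate block, GC trend removal with and without the block, leaving out later-named antisense miRNAs and leaving out each library in turn. P values of shares come from exact permutation tests over libraries.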

Additional observations from a re-analysis of the deposited data

How the results depend on the processing

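The number of miRNAs called was 397, 401 with RLE factors, 372 with library totals alone, 410 with upper-quartile factors, 404 with no filter, 406 with P1 and P14 libraries only, 421 with DESeq2 and 360 with the GC trend removed, and ranged from 340 to 385 when 1 library was left out. The replicate numbers do not pair the libraries, which come from different mice, and deviations of same-numbered libraries had correlations of 0.0926, -0.111 and -0.273 over 350 miRNAs. With the replicate block 376 were called (153 up and 223 down), and 352 with both the block and the GC trend removed.

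Directions turned most often with the GC trend removed. Values with the trend removed, and with the block as well, were 0.64 and 0.63 for miR-1a-3p, -0.28 and -0.28 for miR-92a-3p, -0.17 and -0.18 for miR-24-3p, -0.42 and -0.40 for miR-455-3p, 0.42 and 0.41 for miR-451a, 0.70 and 0.76 for miR-9-5p, 0.46 and 0.45 for miR-1b-5p, 0.34 and 0.33 for miR-26b-5p, 0.053 and 0.051 for miR-15b-3p, and 0.34 and 0.33 for the median of the miR-26 family. With upper-quartile factors miR-1a-3p, miR-1b-5p and miR-9-5p were at 0.059, 0.060 and 0.054, and the median of all miRNAs at 0.20. MiR-455-3p was at -0.076 with no filter. When 1 library was left out, miR-455-3p ranged from -0.16 (without P1 replicate 3, and -0.09 without P14 replicate 3) to 0.29, miR-9-5p from -0.47 to 0.081 (without P1 replicate 3), and the miR-15 family median from -0.035 (without P14 replicate 1) to 0.45. The difference in the share of the 10 most abundant miRNAs, -0.105 percentage points, was 2.89 without later-named antisense miRNAs, 0.793 with TMM scaling, and ranged from -1.76 to 1.93 when 1 library was left out (0.909, 0.533 and 1.93 without P1 replicate 1, P1 replicate 3 and P14 replicate 2). The causes were not tested. With 3 libraries per age, permutation tests cannot pass 0.05, and miRNAs near the floor have no reliable fold change.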

Other observations

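Of the 204 miRNAs whose mean reached 100 normalized CPM, 42 belonged to none of the lists, and 23 of these rose, 6 fell and 13 did not pass. The miRNAs named here were chosen after their values were seen. MiR-218-5p, known from motor neurons and vessels, had 204, 268 and 263 normalized CPM at P1 and 37.4, 26.6 and 28.9 at P14 (log2FC -2.98, SE 0.21, edgeR Padj = 2.6e-08; -2.37 with the GC trend removed). MiR-21a-5p, a miRNA of proliferating and fibrotic tissue, had 5631, 6212 and 5742 at P1 and 2240, 1502 and 2047 at P14 (log2FC -1.60, edgeR Padj = 6.9e-07; -0.83 with the GC trend removed). The libraries of the ages were well apart in both. MiR-340-5p had 244, 276 and 291 at P1 and 70.3, 41.7 and 68.2 at P14, and its log2FC of -2.17 was -0.39 with the GC trend removed.

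Among the increases, miR-146a-5p, a brake on inflammatory signaling, had 77.9, 71.5 and 64.1 at P1 and 232, 184 and 235 at P14 (log2FC 1.61, edgeR Padj = 6.7e-06). MiR-139-5p had 295, 226 and 283 at P1 and 670.0, 788 and 719 at P14 (log2FC 1.44, edgeR Padj = 5.8e-07). MiR-151-5p and miR-191-5p rose by smaller amounts (log2FC 1.27 and 0.93). In all 4 the P14 libraries lay above the P1 libraries.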
